A study of Homo sapiens with 6 samples.

Results

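Collagens are the proteins of the triple helix, and their genes were taken from the table of T24 cells by name: rows of the protein-coding class whose symbol has the form COL, a number, A, and a number. The rule found 44 collagen genes among 58825 rows, of which 19968 were protein-coding. T24 is an established bladder carcinoma line of human origin. The tested cells carried shDLGAP5-1, a hairpin against DLGAP5, which encodes a protein of the mitotic spindle, and the control cells carried shNC-1 (labelled WT for genotype). There were 3 libraries of each, and both groups grew in the same serum-containing medium. Each group stands for 1 hairpin in 1 line, and the labels do not say that libraries came from separate cultures, and p-values therefore rest on the scatter of these libraries alone, which may be technical.

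A collagen chain is built of repeated triplets that each begin with glycine, and 3 chains wind round each other into a helix. Fibrillar collagens (such as types I, II, III and V) build the fibres of connective tissue, fibril-associated collagens sit on them, and type IV forms the network of basement membranes, the sheets under epithelia. Type VI makes beaded filaments, type VII the anchoring fibrils that tie a basement membrane to the tissue below, and type XVII spans the plasma membrane at hemidesmosomes, where epithelial cells are fixed to that sheet. Chains are hydroxylated, folded and exported as procollagen, then trimmed and cross-linked outside the cell. In bladder wall fibroblasts and smooth muscle cells lay down much of the collagen, and the urothelium rests on a basement membrane.

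To show what a collagen message encodes, coding stretches of the 6 collagen genes that changed are given from GENCODE release 29 transcripts. Each is the first 63 bases of the gene's longest unbroken run of glycine triplets, 5′ to 3′, with the glycine codons in capitals.
COL6A2: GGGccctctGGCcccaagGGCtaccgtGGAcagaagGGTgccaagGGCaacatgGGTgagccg
COL7A1: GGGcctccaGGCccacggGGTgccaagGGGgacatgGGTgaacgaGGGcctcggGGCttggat
COL18A1: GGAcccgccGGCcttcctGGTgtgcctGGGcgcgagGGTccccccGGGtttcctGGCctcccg
COL4A1: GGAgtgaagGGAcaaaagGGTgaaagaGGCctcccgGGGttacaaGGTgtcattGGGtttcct
COL12A1: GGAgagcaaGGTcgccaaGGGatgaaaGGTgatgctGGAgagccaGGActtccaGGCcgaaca
COL17A1: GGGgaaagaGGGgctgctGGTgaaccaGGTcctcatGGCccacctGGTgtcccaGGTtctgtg
The genes differ in how much of the protein is helix. Runs of at least 3 such triplets made up 78.6% of the codons of COL4A1 and 48.3% of those of COL7A1. They made up 40.3% of COL17A1, 32.4% of COL6A2, 31.5% of COL18A1 and 8.13% of COL12A1. In COL1A1, a fibrillar chain, 1 run was 338 triplets long, whereas the longest run of COL4A1 was 40 triplets, as type IV helices are broken by short gaps. In GRCh38 coordinates of the table, COL6A2 (ENSG00000142173) spans 46098097 to 46132849 on chromosome 21 (plus strand) and COL18A1 (ENSG00000182871) spans 45405137 to 45513720 on chromosome 21 (plus strand). COL7A1 (ENSG00000114270) spans 48564073 to 48595267 on chromosome 3 (minus strand) and COL4A1 (ENSG00000187498) spans 110148963 to 110307157 on chromosome 13 (minus strand). COL12A1 (ENSG00000111799) spans 75084326 to 75206053 on chromosome 6 (minus strand) and COL17A1 (ENSG00000065618) spans 104031286 to 104085957 on chromosome 10 (minus strand).

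Levels are FPKM, fragments per kilobase of transcript scaled by library size, and so can be compared between genes per length. The targeted gene was checked first. DLGAP5 stood at 5.03, 4.0 and 7.51 FPKM in shDLGAP5-1 replicates 1 to 3, against 32.98, 32.7 and 29.7 FPKM in shNC-1 replicates 1 to 3 (exact two-sided permutation p = 0.1, the smallest that 3 against 3 libraries allow). Depth, estimated from the smallest steps of low values, was about 13800000 to 18600000 fragments in the shDLGAP5-1 libraries and 21900000 to 28100000 in the shNC-1 libraries. The spread between libraries of the lower tested collagens went both ways. For COL1A1, COL16A1, COL8A1 and COL4A5 it was larger in shNC-1 (SD 0.388, 0.518, 0.404 and 0.356 FPKM in shDLGAP5-1 and 0.802, 0.925, 0.492 and 0.370 FPKM in shNC-1). For COL9A3, COL27A1 and COL4A6 it was larger in shDLGAP5-1 (SD 2.06, 1.63 and 0.504 FPKM, against 1.21, 0.554 and 0.218 FPKM in shNC-1). The part of depth in these spreads was not tested. Of 12 leukocyte markers, 9 were highest in shDLGAP5-1 replicate 3, where the list summed to 764.6 FPKM, against 9.02 to 32.6 FPKM in the other 5 libraries. LYZ alone gave 686 FPKM there, and PTPRC 7.03 FPKM, while CD3E was listed at 0 in every library. The 12 fibroblast markers summed to 55.2 to 70.4 FPKM in shDLGAP5-1 and 39.9 to 45.4 FPKM in shNC-1, nearly all from FBLN1, ACTA2 and TAGLN, and FAP was listed at 0 in all. The epithelial keratin KRT7 stood at 633 to 855 FPKM in shDLGAP5-1 and 566 to 645 FPKM in shNC-1. Over all libraries KRT8 stood at 266 to 481 FPKM, KRT18 at 237 to 386 FPKM and KRT19 at 10.6 to 20.9 FPKM. Other epithelial markers were low. CDH1 and TP63 stayed at or under 0.167 FPKM and GATA3 at or under 0.544 FPKM, and EPCAM stood at 0.765 to 1.18 FPKM. The urothelial markers UPK1B and UPK2 stayed at or under 0.201 FPKM in all libraries, and UPK3A reached 2.28 FPKM in shDLGAP5-1 replicate 3 and was listed at 0 elsewhere.

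T24 cells expressed a small set of collagens, led by 2 chains of type VI. Only 17 of the 44 genes (38.6%) reached 1 FPKM in at least 3 libraries, the condition for a test, against 56.4% of all protein-coding rows. The mean over 6 libraries was at least 10 FPKM for 10 genes, in the order COL6A2, COL6A1, COL4A2, COL18A1, COL7A1, COL5A2, COL13A1, COL12A1, COL4A1 and COL17A1. The order differed by group after the first 3: COL5A2 (31.4 FPKM) came before COL18A1 and COL7A1 in shNC-1, where COL4A1 was under 10 FPKM, and in shDLGAP5-1 COL12A1 and COL17A1 were under 10 FPKM. COL6A2 ranked 265 and COL6A1 368 among the protein-coding rows by that mean. COL9A3, COL27A1, COL4A5, COL16A1, COL8A1, COL1A1 and COL4A6 were tested at lower levels.

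Of the 27 collagens that were not tested, 6 were listed at 0 in every library (COL9A1, COL20A1, COL21A1, COL10A1, COL6A5 and COL6A6), and 20, these included, had a mean under 0.1 FPKM. COL10A1 and COL9A1 are best known from cartilage. COL3A1, a fibrillar chain abundant in fibroblasts, did not exceed 0.698 FPKM. COL2A1, the main cartilage chain, did not exceed 0.0963 FPKM. Both COL4A3 and COL4A4, chains of specialised basement membranes such as that of the kidney glomerulus, were at or under 0.112 FPKM.

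**Figure D1:**
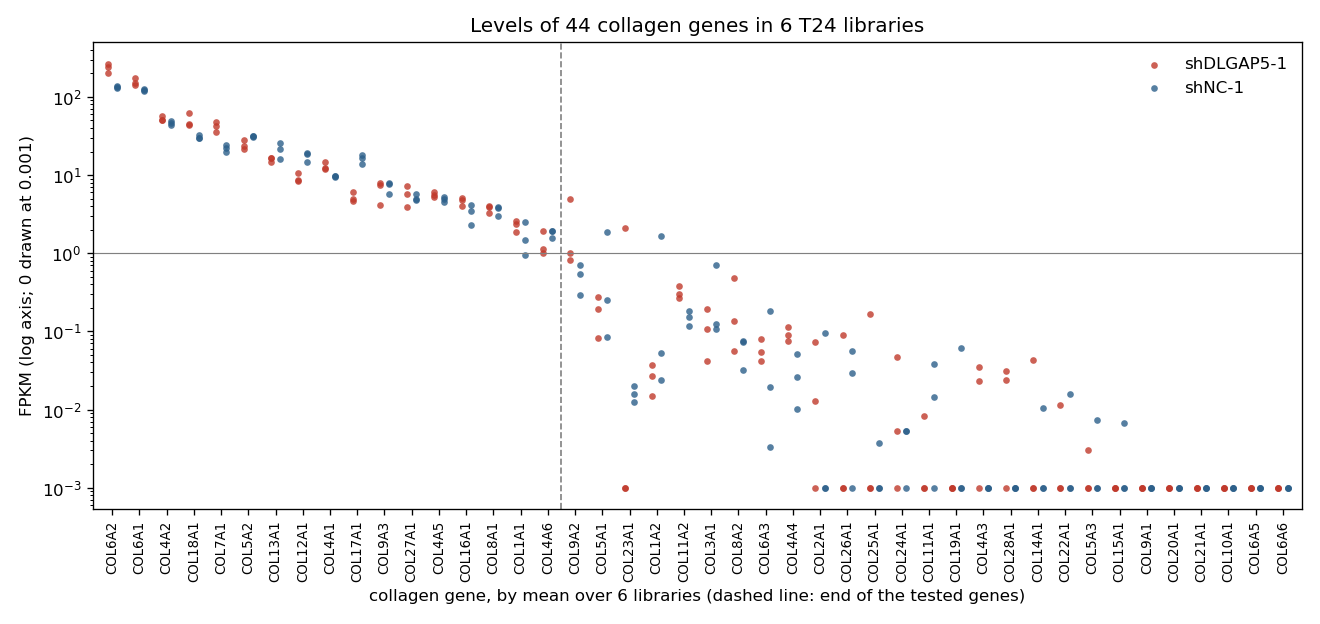
FPKM of the 44 collagen genes on a log axis, ordered by mean over the 6 libraries; each point is 1 library (shDLGAP5-1 left of shNC-1 at each gene), and values of 0 are drawn at 0.001. The 17 tested genes stand left of the dashed line, and the 6 genes at the right end are listed at 0 in every library.

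Several of the highest untested collagens owed their mean to 1 library. COL9A2, a fibril-associated chain and the gene just outside the condition for a test, stood at 0.819, 1.00 and 5.00 FPKM in shDLGAP5-1 and 0.713, 0.543 and 0.295 FPKM in shNC-1. COL23A1, a transmembrane collagen, was 2.07 FPKM in shDLGAP5-1 replicate 3 and at or under 0.0201 FPKM in the other libraries. These 2 genes were high in the library with the leukocyte markers given above, and the part of leukocyte RNA in them was not tested. COL11A2, a fibrillar chain best known from cartilage, stood at 0.301, 0.377 and 0.266 FPKM in shDLGAP5-1 and 0.180, 0.151 and 0.116 FPKM in shNC-1, low in all libraries and with no overlap. COL1A2, the partner chain of COL1A1, stood at 0.0148 to 0.0367 FPKM in shDLGAP5-1 and at 1.66, 0.0242 and 0.0536 FPKM in shNC-1. The fibroblast proteoglycan gene DCN was 1.52 FPKM in that same shNC-1 replicate 1 and at or under 0.0629 FPKM elsewhere, and COL3A1 was 0.698 FPKM there; its part in the COL1A2 value was not tested. COL5A1, the partner chain of COL5A2, was 1.87 FPKM in shNC-1 replicate 2 and at or under 0.275 FPKM in the others, and the basal keratin KRT5 was 3.95 FPKM in that library against at most 0.373 FPKM elsewhere; its part in the COL5A1 value was not tested.

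Of the 17 tested collagens, 6 changed, 4 higher (COL6A2, COL7A1, COL18A1, COL4A1) and 2 lower (COL12A1, COL17A1), with limma adjusted p under 0.05 over 12714 genes. That is 35.3% of those tested, beside 24.8% of all tested genes. Higher calls made up 15.3% of all tested genes and lower calls 9.52%. The shDLGAP5-1 and shNC-1 libraries did not overlap for 9 of the 17 collagens, beside 43.9% of all tested genes. The median log2 fold change of the 17 was 0.15, against 0.03 for all tested genes; fold changes are of FPKM + 1, which understates the change of low genes, and are shDLGAP5-1 over shNC-1. Median-ratio scaling divides each library by 1 factor and so moved most genes nearly alike, with the median of all genes at −0.07. Values relative to that median (COL6A2 0.75 in place of 0.77, COL4A1 0.35 in place of 0.36) therefore change little by construction. With this scaling COL4A1 lost its call, and COL5A2 was called lower. The share of higher calls among all calls, 61.6%, was 48.1% with equal library totals, 42.3% with median ratios, 49.3% after quantile normalization, and 50.0% with the length trend removed. COL6A2, COL7A1, COL12A1 and COL17A1 passed in all 17 alternative settings, and with any 1 shNC-1 library left out they were the only collagens called, 2 higher and 2 lower. Without shDLGAP5-1 replicate 3, the library with the leukocyte markers, the same 6 genes passed in the same directions.

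**Figure D2:**
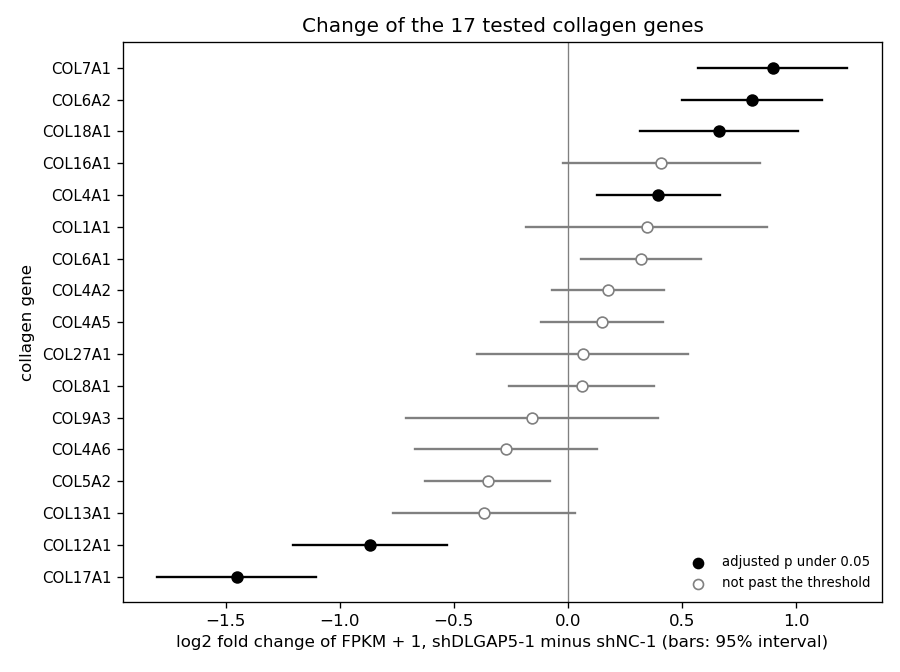
log2 fold change of FPKM + 1, shDLGAP5-1 minus shNC-1, for the 17 tested collagens, with 95% intervals from limma; filled points have an adjusted p under 0.05. COL7A1 (0.90) stands at the top and COL17A1 (−1.45) at the bottom.

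Among type VI chains, COL6A2 rose and COL6A1 did not pass the test. COL6A2 stood at 244.4, 266.5 and 199.4 FPKM in shDLGAP5-1 and 132.3, 131.0 and 138.5 FPKM in shNC-1, a mean of 236.8 ± 34.2 against 133.9 ± 4.02 FPKM (SD, n = 3 each). Every shDLGAP5-1 library lay above every shNC-1 library, and the log2 fold change was 0.81 with a standard error of 0.13 (limma adjusted p = 0.00659). COL6A1 stood at 149.6, 173.5 and 141.0 FPKM in shDLGAP5-1 and 125.4, 123.7 and 120.6 FPKM in shNC-1. Its groups did not overlap either, but the fold of 1.25 (95% interval 1.04 to 1.497) missed the threshold (limma adjusted p = 0.0764), and it passed only after quantile normalization (adjusted p = 0.0448). The ratio of COL6A2 to COL6A1 was 1.63, 1.54 and 1.41 in shDLGAP5-1 and 1.06, 1.06 and 1.148 in shNC-1, given as a description. COL6A3, the chain that joins them in the classical type VI heterotrimer, was 0.0418 to 0.0791 FPKM in shDLGAP5-1 and 0.00334 to 0.183 FPKM in shNC-1, and its stand-ins COL6A5 and COL6A6 were listed at 0.

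COL6A1, COL6A2 and COL18A1 are neighbours on chromosome 21. Of 131 tested genes on that chromosome, 13 were higher (9.92%) and 17 lower, with a median log2 fold change of 0.01. Among all tested genes 15.3% were higher and 9.52% lower, with a median of 0.03. The other 2 tested genes between COL18A1 and COL6A2 did not pass the test.

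In the basement membrane, COL4A1 and COL18A1 rose, and the other type IV chains did not pass. COL4A1 and COL4A2 encode the chains of the common type IV heterotrimer and lie head to head on chromosome 13. COL4A1 stood at 12.4, 14.7 and 12.0 FPKM in shDLGAP5-1 and 9.68, 9.84 and 9.39 FPKM in shNC-1, a mean of 13.0 ± 1.44 against 9.64 ± 0.226 FPKM (SD, n = 3 each). All shDLGAP5-1 libraries lay above all shNC-1 libraries, and the log2 fold change was 0.40 with a standard error of 0.11 (limma adjusted p = 0.0436). This was the weakest of the 6 calls and was lost in 11 of the 17 settings, among them the 3 other scalings (adjusted p = 0.162, 0.115 and 0.0577) and each fit without 1 library other than shDLGAP5-1 replicate 3 (adjusted p = 0.057 to 0.13, log2 fold change 0.31 to 0.43). COL4A2 stood at 51.1, 56.9 and 50.1 FPKM in shDLGAP5-1 and 49.4, 46.9 and 43.4 FPKM in shNC-1, a fold of 1.13 (95% interval 0.953 to 1.34, limma adjusted p = 0.258). Its highest shNC-1 library lay just under its lowest shDLGAP5-1 library. The ratio of COL4A2 to COL4A1 was 3.88 to 4.17 in shDLGAP5-1 and 4.62 to 5.10 in shNC-1, ranges that did not overlap.

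The start sites of this pair of genes in RefSeq (GRCh38.p14) are 126 bases apart. The interval between them, on chr13:110307158-110307283, plus strand, is printed because both genes are read outward from it. Capitals mark the CCAAT box (CCAAT or its reverse complement ATTGG) and the GC box (GGGCGG or CCGCCC).
COL4A1-COL4A2 interval: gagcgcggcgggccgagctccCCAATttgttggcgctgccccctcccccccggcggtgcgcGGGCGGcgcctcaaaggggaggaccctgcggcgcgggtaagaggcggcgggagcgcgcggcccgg
The interval held 1 match of each and none of TATAAA on either strand. In the deposited coordinates the bodies of the pair share 1346 bases on opposite strands, and whether the counting used strand is not given in the sources used here.

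COL4A5 and COL4A6, another head-to-head pair, encode chains of a second type IV network and lie on chromosome X. COL4A5 stood at 5.99, 5.53 and 5.29 FPKM in shDLGAP5-1 and 5.00, 4.56 and 5.30 FPKM in shNC-1, which overlap (fold 1.11, 95% interval 0.922 to 1.34, limma adjusted p = 0.367). COL4A6, the tested collagen with the lowest mean, stood at 1.14, 1.94 and 1.00 FPKM in shDLGAP5-1 and 1.95, 1.93 and 1.56 FPKM in shNC-1, again with overlap (fold 0.829, 95% interval 0.628 to 1.09, limma adjusted p = 0.281).

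COL18A1, a basement membrane collagen whose end fragment is endostatin, stood at 45.0, 61.5 and 43.6 FPKM in shDLGAP5-1 and 32.5, 29.99 and 29.999 FPKM in shNC-1. The means were 50.0 ± 9.95 and 30.8 ± 1.43 FPKM (SD, n = 3 each), with no overlap and a log2 fold change of 0.66 with a standard error of 0.15 (limma adjusted p = 0.0188). Replicate 2 of shDLGAP5-1 was the highest. The call was lost in 5 of 17 settings, among them each fit without 1 shNC-1 library (adjusted p = 0.0529 to 0.0699 in those). COL18A1 overlaps SLC19A1 on the opposite strand over 20149 bases; SLC19A1 stood at 5.43 to 6.04 FPKM in shDLGAP5-1 and 5.58 to 7.07 FPKM in shNC-1.

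**Figure D3:**
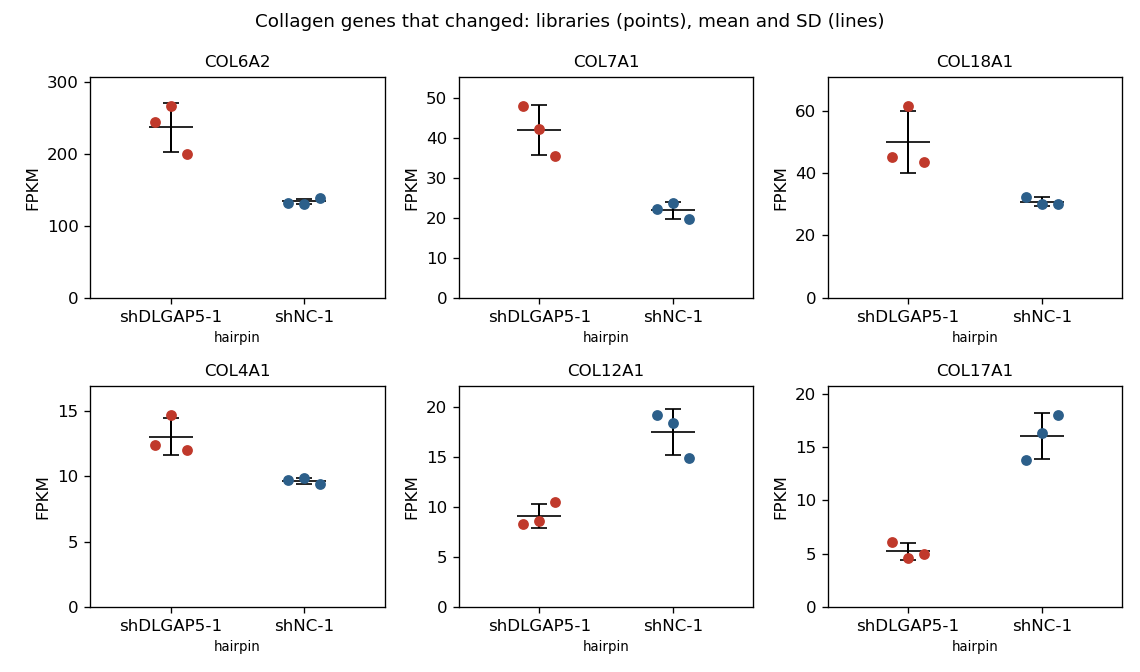
FPKM in each library (points), with mean and SD over 3 libraries (lines), for the 6 collagens past the threshold; axes start at 0. The shDLGAP5-1 libraries lie above the shNC-1 libraries for COL6A2, COL7A1, COL18A1 and COL4A1 and below them for COL12A1 and COL17A1.

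The pair of collagens of the epithelial anchorage changed in opposite directions. COL7A1, the anchoring fibril chain, stood at 48.1, 42.3 and 35.5 FPKM in shDLGAP5-1 and 22.3, 23.9 and 19.7 FPKM in shNC-1, a mean of 41.96 ± 6.27 against 21.95 ± 2.11 FPKM (SD, n = 3 each). It rose by 0.90 on the log2 scale (standard error 0.14, limma adjusted p = 0.00578). COL17A1, the hemidesmosome collagen, stood at 6.12, 4.60 and 4.95 FPKM in shDLGAP5-1 and 13.8, 16.3 and 18.0 FPKM in shNC-1, a mean of 5.22 ± 0.80 against 16.03 ± 2.13 FPKM (SD, n = 3 each). It fell by 1.45 on the log2 scale (standard error 0.15, limma adjusted p = 0.00133), the largest change of any tested collagen, and one of 659 tested genes (5.18%) that moved by at least 1 on that scale. In neither gene did the groups overlap. The ratio of COL7A1 to COL17A1 was 7.85, 9.20 and 7.18 in shDLGAP5-1 and 1.62, 1.46 and 1.10 in shNC-1.

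The 250 bases before the start sites of this opposed pair are printed from RefSeq (GRCh38.p14), 5′ to 3′ on the gene's strand, which is minus for both; capitals mark the same boxes and the TATA box (TATAAA or TTTATA).
COL7A1 (chr3:48595330-48595579): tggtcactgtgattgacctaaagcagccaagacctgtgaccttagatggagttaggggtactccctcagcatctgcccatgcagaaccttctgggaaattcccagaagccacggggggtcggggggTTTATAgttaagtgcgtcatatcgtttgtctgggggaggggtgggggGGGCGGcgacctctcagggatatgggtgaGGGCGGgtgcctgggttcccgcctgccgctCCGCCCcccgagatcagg
COL17A1 (chr10:104085881-104086130): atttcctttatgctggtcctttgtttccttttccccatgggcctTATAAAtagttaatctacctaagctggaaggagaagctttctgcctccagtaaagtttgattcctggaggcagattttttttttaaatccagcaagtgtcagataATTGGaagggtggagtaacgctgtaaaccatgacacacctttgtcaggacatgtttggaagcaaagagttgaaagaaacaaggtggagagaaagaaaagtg
COL7A1 held 3 GC box matches and 1 TATA box match, and COL17A1 held no GC box, 1 TATA box and 1 CCAAT box match. In the deposited coordinates COL17A1 begins at base 104085957, so part of its printed window lies inside that gene. RefSeq promoter windows of 300 bases were matched for 12 of the 17 tested collagens, 14 windows in all. On either strand, 71.4% of these held a GC box, 35.7% a CCAAT box, 35.7% a TATA box and 0 of 14 the AP-1 motif TGACTCA. Among all 35116 windows the shares were 45.0%, 34.6%, 11.5% and 4.95%. A match is a description of the letters and shows no binding.

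Of fibril-associated collagens, COL12A1 fell, and 2 others did not pass the test. COL12A1 coats type I fibrils and its helix is a small part of a long protein. It stood at 8.27, 8.60 and 10.5 FPKM in shDLGAP5-1 and 19.2, 18.4 and 14.9 FPKM in shNC-1, a mean of 9.13 ± 1.21 against 17.5 ± 2.31 FPKM (SD, n = 3 each). The groups did not overlap, and the log2 fold change was −0.87 with a standard error of 0.14 (limma adjusted p = 0.00707). COL16A1 stood at 4.83, 5.04 and 4.06 FPKM in shDLGAP5-1 and 3.52, 2.29 and 4.11 FPKM in shNC-1 (fold 1.33, 95% interval 0.985 to 1.79, limma adjusted p = 0.147). COL9A3, a chain of type IX, stood at 7.498, 7.86 and 4.12 FPKM in shDLGAP5-1 and 5.81, 8.02 and 7.73 FPKM in shNC-1 (fold 0.896, 95% interval 0.611 to 1.31, limma adjusted p = 0.655). Both overlapped, and the lowest COL9A3 value was in the library with the leukocyte markers, without which its log2 fold change turned to 0.10.

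No fibrillar collagen passed the limma test. COL5A2, the most abundant of them, stood at 21.8, 28.0 and 23.7 FPKM in shDLGAP5-1 and 32.0, 31.5 and 30.5 FPKM in shNC-1, with no overlap between groups (fold 0.784, 95% interval 0.647 to 0.949, limma adjusted p = 0.0676). It passed with median-ratio scaling (adjusted p = 0.0259) and without shDLGAP5-1 replicate 2 (adjusted p = 0.0475). COL27A1 stood at 3.90, 5.66 and 7.17 FPKM in shDLGAP5-1 and 4.73, 5.79 and 4.98 FPKM in shNC-1 (fold 1.05, 95% interval 0.759 to 1.44, limma adjusted p = 0.835), and its sign turned with scaling. Its highest value was in shDLGAP5-1 replicate 3, the library with the leukocyte markers, and its sign also turned without that library. COL1A1, the main chain of type I, stood at 1.85, 2.39 and 2.61 FPKM in shDLGAP5-1 and 2.53, 1.46 and 0.956 FPKM in shNC-1 (fold 1.27, 95% interval 0.882 to 1.83, limma adjusted p = 0.296). The groups overlapped in these 2 genes. For COL1A1 the overlap came from shNC-1 replicate 1 alone, the library with the DCN value given above, whose part was not tested. COL1A1 was not called with any 1 library left out (limma adjusted p = 0.0875 to 0.643). Of the 3 fibrillar collagens tested, 1 had a p under 0.05 before adjustment.

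Of the rest, COL13A1, a membrane-spanning collagen, stood at 16.6, 16.4 and 14.9 FPKM in shDLGAP5-1 and 16.1, 21.8 and 25.6 FPKM in shNC-1 (fold 0.776, 95% interval 0.588 to 1.02, limma adjusted p = 0.159). COL8A1, a chain of the hexagonal networks of vessel walls and the cornea, stood at 4.06, 3.29 and 3.87 FPKM in shDLGAP5-1 and 3.87, 3.81 and 2.99 FPKM in shNC-1 (fold 1.04, 95% interval 0.836 to 1.30, limma adjusted p = 0.775). Both overlapped, and the sign of COL8A1 turned with scaling.

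Summed over all 44 genes, collagens made up 634.7, 706.7 and 572.2 FPKM in shDLGAP5-1 and 484.0, 484.2 and 479.2 FPKM in shNC-1. The mean was 637.9 ± 67.3 against 482.5 ± 2.84 FPKM (SD, n = 3 each), a ratio of 1.32, with an exact two-sided permutation p of 0.1, the smallest possible here. The libraries' own totals were 431491 to 487559 FPKM in shDLGAP5-1 and 413001 to 435077 FPKM in shNC-1, so as a share of all FPKM collagens were 0.140 ± 0.0154% against 0.115 ± 0.00393%. The 2 type VI chains were 59.5% to 62.3% of collagen FPKM in shDLGAP5-1 and 52.6% to 54.1% in shNC-1. Without them the sum was 246.4 ± 18.1 in shDLGAP5-1 and 225.3 ± 4.79 FPKM in shNC-1, a ratio of 1.09.

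By class, type VI summed to 391.5 ± 49.9 FPKM in shDLGAP5-1 and 257.3 ± 2.30 FPKM in shNC-1. Transmembrane collagens summed to 21.9 ± 0.972 FPKM in shDLGAP5-1 and 37.2 ± 6.92 FPKM in shNC-1. Type IV summed to 72.8 ± 5.64 FPKM in shDLGAP5-1 and 63.01 ± 3.23 FPKM in shNC-1, and fibrillar collagens to 33.0 ± 4.44 FPKM in shDLGAP5-1 and 40.0 ± 2.71 FPKM in shNC-1. These sums are descriptions with no test of their own, as each class is carried by 1 or 2 genes.

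**Figure D4:**
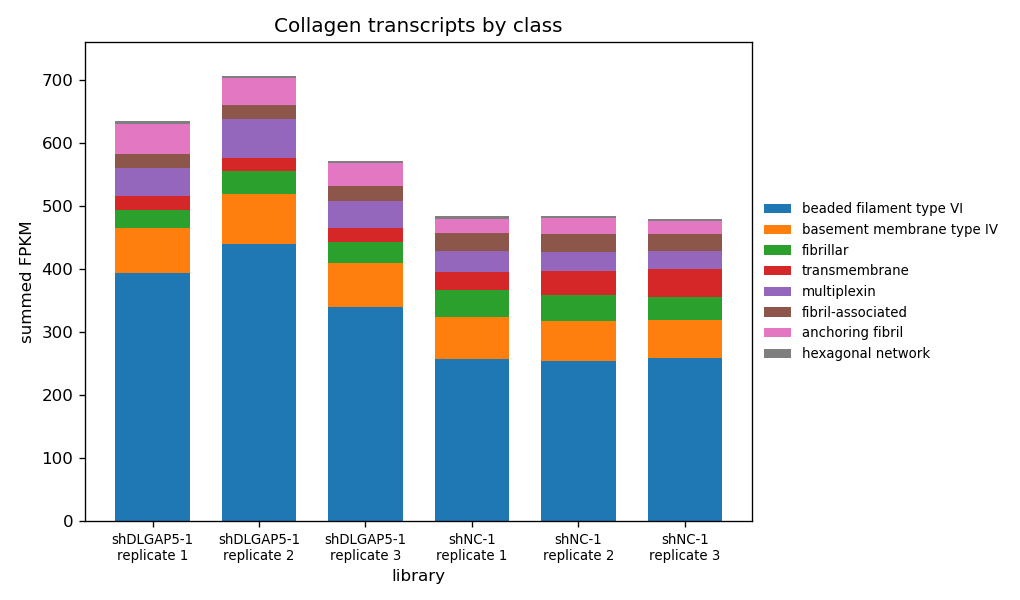
Summed FPKM of collagen genes by class in each library, stacked; COL26A1 and COL28A1, which reach at most 0.0897 FPKM together, are not drawn. The shDLGAP5-1 stacks reach 572.2 to 706.7 FPKM and the shNC-1 stacks 479.2 to 484.2 FPKM, and most of the difference is in type VI.

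The machinery of collagen was described from lists of genes by step, whose members were chosen with earlier results of these data known. Of 70 tested genes over all lists, 7 were higher and 8 lower, 21.4% in all, beside the 24.8% of all tested genes. Some reached 1 FPKM in only 1 group, so that the difference itself decided whether they were tested; of the 66 others, 6 were higher and 6 lower. Among 18 that fold and modify chains in the endoplasmic reticulum, 2 fell, both lysyl hydroxylases. PLOD2, which hydroxylates lysines at the chain ends for cross-linking, stood at 59.0, 57.6 and 60.4 FPKM in shDLGAP5-1 and 106, 106 and 93.9 FPKM in shNC-1 (log2 fold change −0.78, standard error 0.10, limma adjusted p = 0.00279). PLOD3 stood at 28.1 ± 3.64 FPKM in shDLGAP5-1 and 40.4 ± 0.864 FPKM in shNC-1 (log2 fold change −0.51, limma adjusted p = 0.0204). The other genes of the list with the smallest p, P3H4 and P3H3 of the prolyl 3-hydroxylase family, had log2 fold changes of 0.56 and 0.47 (limma adjusted p = 0.102 and 0.114).

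None of 12 genes that export procollagen passed the limma test, nor had any an unadjusted p under 0.05; SAR1B, a small GTPase of the COPII coat, came nearest (log2 fold change −0.61, adjusted p = 0.174), before MIA3 (0.31), SEC13 (−0.27) and SEC24D (0.19). Of 7 that trim or cross-link collagens and were tested through both groups, BMP1 rose. LOXL4, a lysyl oxidase, stood at 7.06, 8.57 and 7.14 FPKM in shDLGAP5-1 and 0.562, 0.811 and 0.818 FPKM in shNC-1 (log2 fold change 2.31). It passed the filter through shDLGAP5-1 alone, so the main test is not used for it; with no filter its limma adjusted p was 0.00346. BMP1, the protease that removes the C-propeptide, was 4.77 ± 1.09 FPKM in shDLGAP5-1 and 2.81 ± 0.193 FPKM in shNC-1 (log2 fold change 0.58, limma adjusted p = 0.0362). Its enhancer PCOLCE and the oxidase LOX had log2 fold changes of 0.49 and −0.19 and did not pass (adjusted p = 0.126 and 0.261).

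Of 4 tested collagen receptors, the kinase DDR1 rose (log2 fold change 0.58, limma adjusted p = 0.0229), and the integrin chains ITGA1, ITGB1 and ITGA2 did not pass (0.20, −0.13 and −0.15). MRC2 of this list is not analysed here. Of 8 genes listed for collagen breakdown or its inhibition and tested through both groups, 2 fell and 1 rose. The inhibitors among them, TIMP1, TIMP2 and TIMP4, had log2 fold changes of 0.56, −1.29 and 0.36. TIMP2 stood at 19.3, 23.1 and 23.9 FPKM in shDLGAP5-1 and 21.1, 99.7 and 79.2 FPKM in shNC-1, which overlap. None of these inhibitors passed (limma adjusted p = 0.0676, 0.112 and 0.0774). The interstitial collagenase MMP1 was 0.386 ± 0.0167 FPKM in shDLGAP5-1 and 1.28 ± 0.0604 FPKM in shNC-1 (log2 fold change −0.72); it passed the filter through shNC-1 alone, and with no filter its limma adjusted p was 0.0218. The membrane-bound MMP14 stood at 61.6, 68.3 and 64.7 FPKM in shDLGAP5-1 and 89.4, 94.0 and 98.3 FPKM in shNC-1 (log2 fold change −0.53, limma adjusted p = 0.00999). The cathepsins moved apart, CTSL by −0.40 (adjusted p = 0.0305) and CTSK by 0.46 (adjusted p = 0.0268).

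Of 14 basement membrane partners tested through both groups, 2 rose and 2 fell. Over all 15 the counts were 2 higher and 3 lower, and they moved with the processing to 1 higher and 4 lower with same-total or median-ratio scaling and 5 higher and 4 lower with the length trend removed. LAMA1 was 0.269 ± 0.101 FPKM in shDLGAP5-1 and 2.00 ± 0.289 FPKM in shNC-1 (log2 fold change −1.24); it passed the filter through shNC-1 alone, and with no filter its limma adjusted p was 0.0136. LAMC1 had a log2 fold change of −0.72 (limma adjusted p = 0.0112). Fibronectin, FN1, stood at 423, 525 and 417 FPKM in shDLGAP5-1 and 230, 225 and 246 FPKM in shNC-1 (log2 fold change 0.95, limma adjusted p = 0.00348), and LAMB1 rose by 0.48 (limma adjusted p = 0.0263).

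Of 4 tested proteins that associate with fibrils, FBLN1 rose (50.6 ± 6.72 FPKM in shDLGAP5-1 and 30.4 ± 0.285 FPKM in shNC-1; log2 fold change 0.71, limma adjusted p = 0.00729). THBS1, THBS2 and TNC had log2 fold changes of −0.52, 0.21 and 0.17 (adjusted p = 0.0520, 0.316 and 0.563). With 1 library left out, PLOD3 lost its call without any shNC-1 library (adjusted p = 0.0534 to 0.081) and LAMB1 without any of these or shDLGAP5-1 replicate 2 (0.0676 to 0.0884). BMP1 and CTSL lost theirs without any library but shDLGAP5-1 replicate 1 (adjusted p up to 0.101 and 0.111), and CTSK without any but shDLGAP5-1 replicate 3 (up to 0.118). DDR1 lost its call without shDLGAP5-1 replicate 1 or 2 or shNC-1 replicate 1 or 3 (up to 0.0812), and LAMC1 and MMP14 without shNC-1 replicate 2 (adjusted p = 0.0515 and 0.0537). The calls of CTSK, LAMB1, BMP1 and DDR1 were also lost with same-total scaling and with no filter, and that of LAMB1 with median-ratio scaling. CTSK lost its call in 11 of 16 settings in all, quantile normalization and removal of the length trend among them (adjusted p up to 0.1698). LOXL4, LAMA1 and MMP1, which are at or above 1 FPKM in 1 group only, could not be tested without a library of that group. The number of changed genes over the lists was 8, 7 and 8 without shNC-1 replicates 1, 2 and 3, against 15 with all libraries.

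Among the marker lists, fibroblast ACTA2 rose (log2 fold change 1.29, limma adjusted p = 0.00115) and TAGLN fell (−1.54, adjusted p = 0.00213). Of 8 endothelial markers only EGFL7 was tested, and it rose (1.77, adjusted p = 0.00103), while CDH5, VWF, KDR, TEK and CLDN5 were at or under 0.0455 FPKM in every library. ESAM, untested, was 0.220, 0.644 and 0.394 FPKM in shDLGAP5-1 and 0.0474, 0.134 and 0.0309 FPKM in shNC-1, with no overlap. PECAM1 was 8.45 FPKM in shDLGAP5-1 replicate 3, the library with the leukocyte markers, and at most 0.388 FPKM elsewhere. Of 5 tested epithelial markers KRT19 fell (−0.76, adjusted p = 0.00438), and KRT8, KRT7 and KRT18 did not pass (−0.47, 0.31 and −0.29). No tested leukocyte marker passed the limma test, and none of the 3 had an unadjusted p under 0.05. A test between groups cannot decide on leukocyte RNA here, as most of that signal lay in shDLGAP5-1 replicate 3. LYZ, for example, had a log2 fold change of 2.37 with a standard error of 2.04. In such bulk libraries a change in the share of cells that express a collagen and a change in its level per cell cannot be told apart.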

How the data were processed

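The authors deposited 1 table of normalized values, which from the values are FPKM: they are not whole, library totals differ, and low single-exon genes step by an amount inverse to their length. The header names no unit, and how reads were aligned, assigned to strands and quantified is not given in the sources used here. Per the labels' protocols, total RNA went into an mRNA library kit. Columns of shNC-1 carry NC and a number; the other 3 columns were given to shDLGAP5-1, the only other group. An exact 0 may be a failed estimate.

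The 12714 genes that reached 1 FPKM in 3 or more libraries were fitted with limma 3.58.1 (trended variance, R 4.3.3) on log2(FPKM + 1), group as the only term, and p-values were adjusted by Benjamini-Hochberg over all of them, with 0.05 as threshold. FPKM are not counts, so no count test was run, and the number of libraries limits precision. Of the identifiers, 58552 are in GENCODE release 29; 29 of 44 collagens have the same GRCh38 coordinates there. Promoter windows come from RefSeq GRCh38.p14 and matched 32 of 44 collagens. Alternatives changed the pseudocount, filter, scaling, length trend, variance model, replicate block and libraries. Members and lists were chosen with earlier results of these data known. Named were all tested collagens, the 5 highest untested, up to 4 genes of each list by p, and LYZ and PTPRC; others were named after their values were seen. Of the basement membrane partners, 1 gene that enters the counts is not reported here.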

Additional observations from a re-analysis of the deposited data

How the results depend on the processing

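Of 12714 tested genes, 3155 changed; the count was 2071 with no filter and 1464 with a replicate block, and 1326 to 2806 with 1 library left out (1708 without shDLGAP5-1 replicate 2, and 1497, 1326 and 1911 without shNC-1 replicates 1, 2 and 3). The number of collagens higher was 2 in place of 4 with no filter and with the replicate block, and 2 to 4 with 1 library left out; COL4A1 and COL18A1 were the calls lost. Genes of the collagen lists that changed numbered 8 in place of 15 with the replicate block and 7 to 15 with 1 library left out. Same-numbered libraries did not deviate together (r = −0.155, 0.021 and −0.157), no library correlated best with its own number, and the block rests on a number alone. Without the length trend the same 6 collagens passed. Uncalled values turned sign: COL8A1 from 0.06 to −0.028 (same total), −0.036 (median ratio) and −0.10 (quantile), and −0.033 to 0.13 with 1 library left out; COL27A1 from 0.07 to −0.025, −0.039 and −0.037 in those scalings, and −0.11 to 0.26 with 1 left out; COL9A3 from −0.16, with −0.30 to 0.10 with 1 left out. Relative to the median of all genes, the same-total and median-ratio values of COL8A1 and COL27A1 stayed above 0, as both scalings use 1 factor per library. The quantile values of both genes lay under the median of all genes in that setting (−0.027). The causes were not tested. The ratio of summed collagens, an analysis chosen after seeing the data, was 1.22 to 1.34 over the scalings and 1.25 to 1.39 with 1 library left out. At these depths, levels near 0.1 FPKM are set by few fragments.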
